A study of Mus musculus with 12 samples.

Results

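The miRNAs of the clusters miR-17~92 and miR-106b~25 were followed through 2 days in mouse liver. They were taken by name from the array files: mmu-miR-17, mmu-miR-18a, mmu-miR-19a, mmu-miR-20a, mmu-miR-19b and mmu-miR-92a of miR-17~92, and mmu-miR-106b, mmu-miR-93 and mmu-miR-25 of miR-106b~25, without the star forms. The prefix mmu, for mouse, is mostly left out below. These 9 members are 9 of the 650 miRNA entries of the array, and 7 of them were detected and tested, of 139 entries tested in all. Livers were collected every 4 h, from ZT18 to ZT62, where zeitgeber time (ZT) counts the hours from lights on. Lights were on for 12 h and off for 12 h of each day, food was not restricted, and the labels name no genotype change or drug. RNA from 2 livers was mixed for each collection time, so each of the 12 one-colour Agilent arrays measured a pool. Each of 6 clock times (2, 6, 10, 14, 18 and 22 h after lights on) was sampled in the first cycle (ZT18 to ZT38) and again 24 h later in the second cycle (ZT42 to ZT62). The light phase and the dark phase hold 6 arrays each. The series asks which liver miRNAs follow the time of day, and its replicates are pools, so a p-value here reflects how pools vary and not how mice vary.

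Each cluster is transcribed as one primary RNA, from which Drosha and Dicer release several mature miRNAs. A mature miRNA pairs with messenger RNAs chiefly through its seed, bases 2 to 8 from its 5′ end, so members with one seed share many targets. The miR-17~92 cluster, also called oncomiR-1, is driven by MYC and E2F factors and supports proliferation and survival, while miR-106b~25 lies in an intron of the DNA replication gene Mcm7. Known targets include the cell cycle inhibitor Cdkn1a for the miR-17 family and the death-promoting gene Bcl2l11 (Bim) for several members.

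The mature sequences show which members can be expected to read the same sites, and how few bases separate some of them. All 9 were matched to RefSeq miRNAs of GRCm38.p6, and the seed is in capitals. The first family has the seed AAAGUGC and 4 members.
miR-17: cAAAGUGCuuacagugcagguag
miR-20a: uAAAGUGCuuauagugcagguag
miR-106b: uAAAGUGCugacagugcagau
miR-93: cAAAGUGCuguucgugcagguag
miR-18a stands alone with a seed that differs from the first by 1 base.
miR-18a: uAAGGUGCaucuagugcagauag
The miR-19 pair has the seed GUGCAAA.
miR-19a: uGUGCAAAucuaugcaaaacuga
miR-19b: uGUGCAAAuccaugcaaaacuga
The last family joins one member of each cluster under the seed AUUGCAC.
miR-92a: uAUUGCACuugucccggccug
miR-25: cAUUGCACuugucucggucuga

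With positions counted from the 5′ end, miR-19a and miR-19b differ by the single substitution U11C. miR-17 and miR-20a differ by 2, C1U and C12U, and miR-18a carries A4G within the seed when set against miR-17. Over their shared 21 bases miR-92a and miR-25 differ by U1C, C14U and C18U. The seed AAAGUGC occurs in 7 of the 1674 distinct mature sequences of the RefSeq mouse table (0.418%), AUUGCAC in 6 (0.358%), and AAGGUGC and GUGCAAA in 2 each (0.119%). Probe sequences were not analysed here, so how far a probe separates such close relatives was not tested. In GRCm38.p6 the mature miRNAs of miR-17~92 span 813 bases on the plus strand at chr14:115043684-115044496, in the order in which the opening names them, and no other gene in the RefSeq table spans them. Those of miR-106b~25 span 476 bases on the minus strand at chr5:138165332-138165807, within the gene Mcm7. The mature sequences of miR-19b and miR-92a are also made from a second locus each, on chromosome X, and an array signal cannot be assigned to one locus.

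Across the series the arrays detected 132 to 162 of the 650 entries, and 112 entries were detected on every array. No spot was saturated, and the factors that scaled the arrays to one another lay between 0.910 and 1.16. Slide 1 held 8 of the arrays (ZT18 to ZT46) and slide 2 held 4 (ZT50 to ZT62), so slide and time are partly confounded. The markers matched the labelled tissue: the hepatocyte miRNA miR-122 had 29458 to 33127 units of scaled intensity, all 4 hepatocyte markers were detected on 12 of 12 arrays, and the 2 neuronal and 3 striated muscle markers on none. Markers of other cells were present too, with 2 of 3 red cell, 4 of 6 leukocyte, 2 of 2 endothelial and 3 of 5 stellate and smooth muscle markers detected on every array. In such bulk tissue, fewer cells of a type and less RNA per cell cannot be told apart. Detection was also called for 4 herpesvirus entries, for which the labels mention no infection: mcmv-miR-M23-1-5p had 112 to 174 units and mcmv-miR-m88-1 had 70.0 to 102.2.

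Of the members, 7 were detected on 12 of 12 arrays, and miR-17 and miR-18a on 0 of 12. The brighter of the 2 probes of mmu-miR-17 gave scaled intensities from -3.1 to 5.46, and that of mmu-miR-18a from 2.37 to 7.35. Both lay below the floor of 22.2 units, the typical lowest signal of a detected probe, at every time. This is a statement about these probes, since low values set only an upper limit on the miRNA. The members from the first 2 hairpins of miR-17~92 were thus not detected, while those from the 4 that follow were, as were the 3 of miR-106b~25. The star form from the first hairpin, miR-17*, was detected on 2 arrays. A probe's intensity depends on its own sequence, so levels are compared below within a member and not between members.

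**Figure D1:**
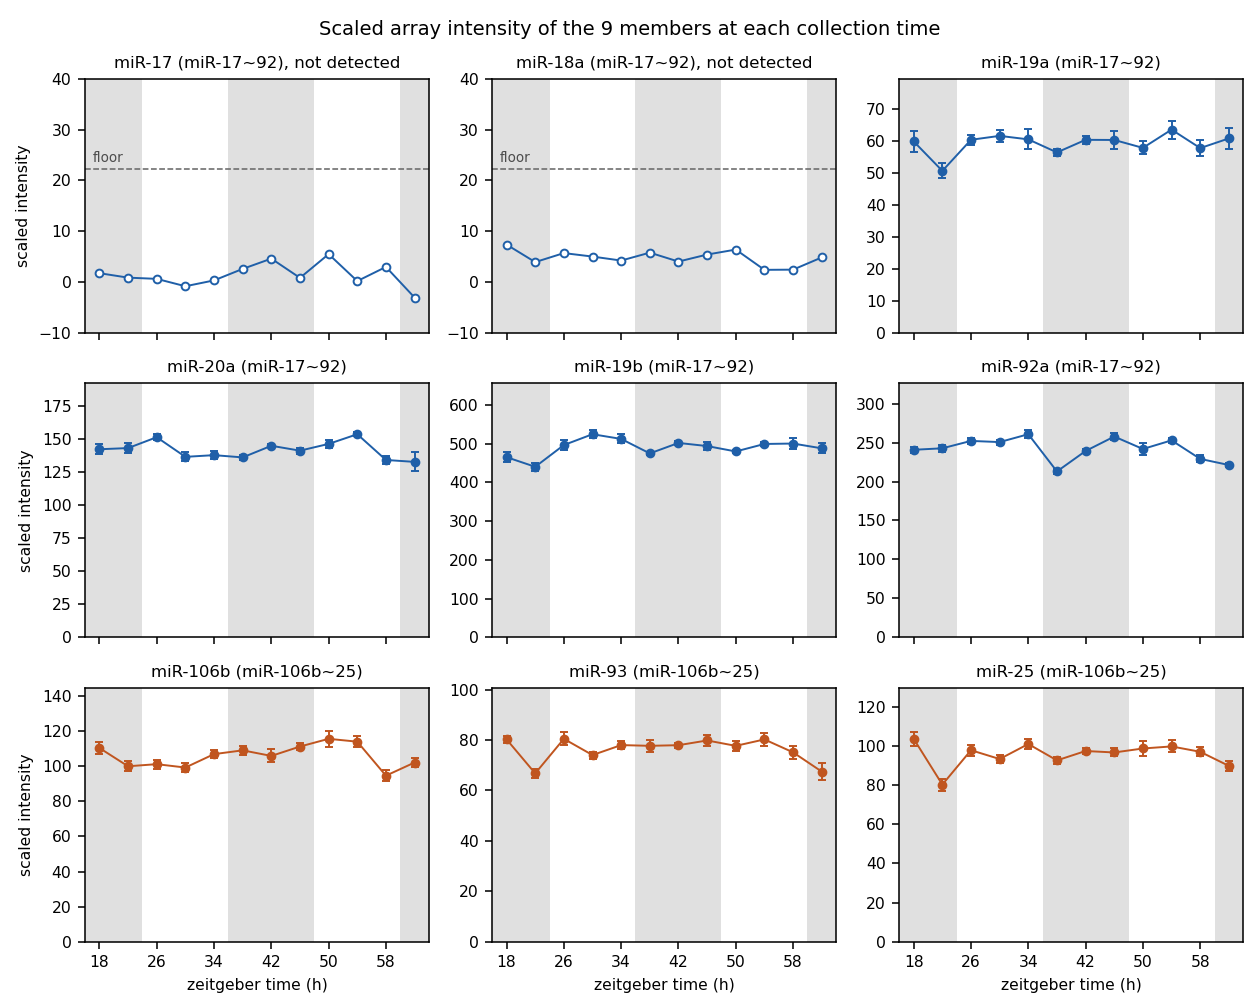
Scaled intensity (linear scale, y axis) of each member by zeitgeber time in hours (x axis), 1 pool of 2 livers per point, with the standard error between spots as bars; grey bands are dark hours and the dashed line is the floor of 22.2 units. The 7 detected members stay within 1.16-fold to 1.29-fold between their highest and lowest array, and miR-17 and miR-18a (open points) lie below the floor throughout.

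Of the AAAGUGC family, mmu-miR-20a, a regulator of the cell cycle factor E2F1, gave 142.1, 142.9, 151.2, 136.3, 137.6 and 135.9 units at ZT18, ZT22, ZT26, ZT30, ZT34 and ZT38. In the second cycle it gave 144.7, 141.0, 146.1, 153.4, 134.0 and 132.5 units at ZT42 to ZT62. Its mean was 141 ± 6.61 units (SD, n = 12), and in both cycles the arrays of clock times 10 and 14 were among the lowest. mmu-miR-106b, the first miRNA of its cluster and a repressor of Cdkn1a, gave 110.4, 99.98, 101.2, 99.3, 106.9 and 109.1 units at the same times of the first cycle and 105.9, 111.2, 115.6, 114.0, 94.6 and 102.1 in the second. Its 2 arrays at clock time 6 (99.3 and 114.0) differed by 1.15-fold, beside 1.22-fold between its highest and lowest array. mmu-miR-93, with the same seed, gave 80.2, 66.8, 80.5, 74.0, 78.0 and 77.7 units in the first cycle and 77.9, 79.8, 77.7, 80.2, 75.1 and 67.5 in the second. Its lowest 2 arrays lay apart from the rest: ZT22 and ZT62, both in the dark phase but at different clock times.

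The miR-19 pair, known as a main driver of the cluster's effect on cell survival, was steady over most arrays. mmu-miR-19a gave 59.8, 50.6, 60.4, 61.6, 60.5 and 56.4 units in the first cycle and 60.3, 60.3, 57.8, 63.5, 57.7 and 60.8 in the second. mmu-miR-19b gave 465, 440.3, 497, 525, 512 and 475 units in the first cycle and 502, 494, 480.0, 499, 500.4 and 488 in the second. Both were lowest at ZT22, and their later arrays spread less: the SD of miR-19b on the log2 scale was 0.094 over the first cycle and 0.025 over the second (6 arrays each). This was not particular to the pair: for miR-21, outside the clusters, the SDs were 0.142 and 0.051. Members miR-20a (0.058 and 0.080) and miR-106b (0.068 and 0.110) went the other way. The directions were not counted over all entries.

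In the AUUGCAC family, mmu-miR-92a, known for restraining blood vessel growth, gave 241, 243, 252, 251, 261 and 213 units in the first cycle and 239, 258, 242, 253, 229 and 221 in the second. Its lowest values, 213 and 221, were the 2 arrays of clock time 14 (ZT38 and ZT62). On those arrays miR-92a was low along with most entries: 18.3% and 21.1% of the 109 never at the floor lay above their own medians. The median deviation of these 109 entries was -0.059 and -0.049 on the log2 scale. On that scale miR-92a had 7.73 and 7.79, beside its mean of 7.92. mmu-miR-25, its partner in seed from the other cluster, gave 103.6, 80.3, 97.8, 93.3, 101.0 and 92.6 units in the first cycle and 97.4, 96.7, 98.7, 99.8, 97.0 and 89.8 in the second. As for miR-93, its lowest array was ZT22, and ZT62 was the lowest of the second cycle.

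The members varied little between arrays. Coefficients of variation over the 12 arrays lay between 4.57% (miR-19b) and 6.41% (miR-25). SDs on the log2 scale were 0.067 (miR-20a and miR-19b) to 0.097 (miR-25), beside a median of 0.095 over the 109 entries never at the floor, and 25 of those entries varied less than miR-20a. The error that came from the spots of a probe within an array was 0.023 (miR-92a) to 0.062 (miR-19a) on the same scale. The spread between arrays was therefore 3.79 times the spot error for miR-92a but 1.34 times for miR-19a, whose changes between arrays barely exceeded what its spots allow. A second check came from the other probe of each member. Over the 6 members whose second probe stayed above the floor, Pearson's r between the probes over 12 arrays was 0.26 to 0.74, and 1 of these 6 relations passed Benjamini-Hochberg adjustment (permutation tests). That was miR-106b, with r = 0.74 (adjusted permutation p = 0.0386), Spearman's rho 0.76 (adjusted permutation p = 0.0386) and r = 0.69 without the 2 arrays farthest from its median. For miR-19b (r = 0.64, rho = 0.46, adjusted permutation p = 0.0688 and 0.271) and miR-92a (r = 0.62, rho = 0.40, adjusted permutation p = 0.0688 and 0.271), r was -0.04 and 0.03 without those 2 arrays. For miR-93 the second probe lay at the floor on 11 of 12 arrays, so its values rest on one probe.

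**Figure D2:**
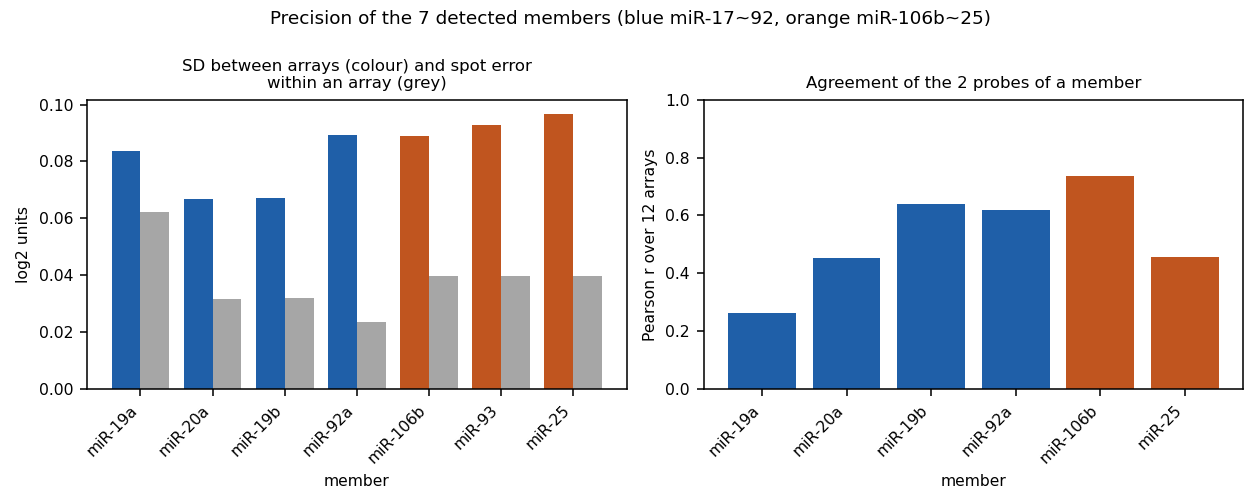
Left, SD over 12 arrays (coloured) and median standard error between spots of one array (grey) of each detected member, in log2 units; right, Pearson's r over 12 arrays between the 2 probes of a member. The array SD of miR-92a is 3.79 times its spot error and that of miR-19a 1.34 times, and r reaches 0.74 for miR-106b; miR-93 has no value because its second probe was at the floor on 11 arrays.

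No 24-h rhythm was called in any of the 7 detected members by limma or by permutation, and the fitted swings were small. A cosine and a sine of 24 h were fitted to the log2 values with limma, and 0 of 139 entries (0%) passed a Benjamini-Hochberg adjusted p of 0.05. At an unadjusted p under 0.05 there were 5 of 139 entries (3.6%) and 0 of 7 members by limma, and 6 of 139 (4.32%) and 0 of 7 members when the 12 time labels were permuted. The smallest p among the members was that of miR-20a, whose peak-to-trough fold was 1.09, with 1.19 as the upper 95% limit. Its fitted peak was 1.09 h after lights on, and its limma adjusted p was 0.849. miR-92a had a fold of 1.12 (upper limit 1.26, adjusted p = 0.849) and a fitted peak at 2.49 h. miR-19b had a fold of 1.08 (upper limit 1.19) and a peak at 7.96 h, late in the light phase. The other members, miR-19a, miR-106b, miR-25 and miR-93, had folds of 1.04 to 1.06 with upper limits of 1.22 to 1.23. Thus swings above 1.26-fold lie outside the 95% limit of each of the 7 members under the scaling used here. That bound rests on the processing: the fitted folds of the members were 1.26 to 1.36 with arrays scaled over all probes and 1.13 to 1.65 with a normexp background correction, the highest being that of miR-19a, and no member was called (limma adjusted p = 0.696 for each with normexp). Their median fold was 1.06 and their median upper limit 1.22, beside 1.07 and 1.25 over the 109 entries never at the floor. An upper limit under 1.5 was found for 7 of 7 members and for 92 of those 109 entries.

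**Figure D3:**
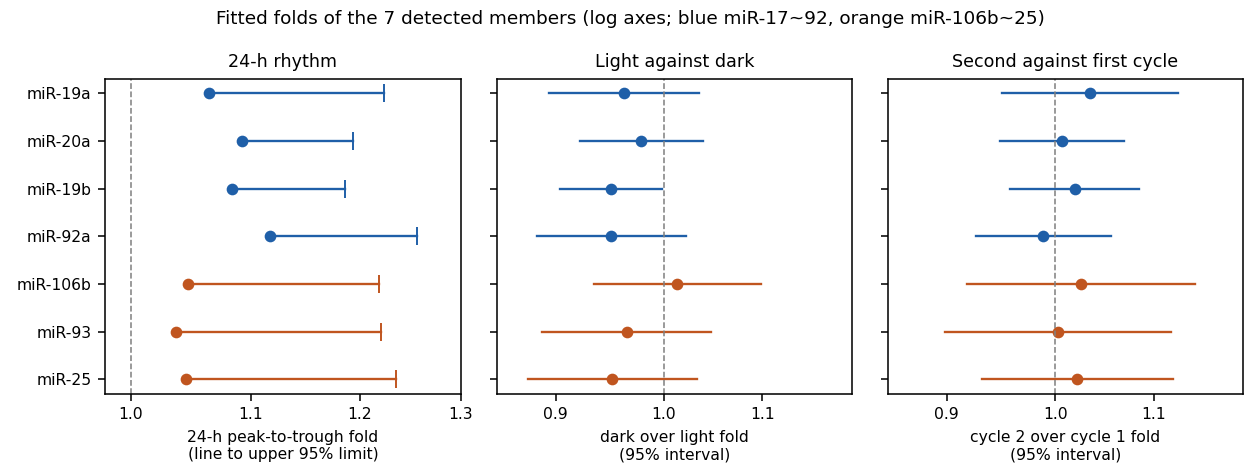
Fitted folds of the 7 detected members on log axes: the 24-h peak-to-trough fold with a line to its upper 95% limit (left), dark over light (middle) and second over first cycle (right), both with 95% intervals, 12 arrays each. No upper limit on the left passes 1.26, and in the middle only the interval of miR-19b (0.904 to 0.998) leaves out 1, before adjustment.

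Between light and dark the members differed by at most 0.07 on the log2 scale. limma called 0 of 139 entries (0%) and 0 of 7 members after adjustment, and 11 entries (7.91%) and 1 member at an unadjusted p under 0.05. The member was miR-19b, with 480.0 to 525 units in the light and 440.3 to 502 in the dark. Its dark mean lay 0.07 below its light mean on the log2 scale (difference -0.07, SE 0.032, 95% interval -0.15 to -0.0026, a fold of 0.950; limma adjusted p = 0.585). All 6 of its dark arrays lay below the light mean, though light and dark overlapped. With the slide as a block the difference was -0.08 (adjusted p = 0.828), and within slide 1 it was -0.11 (adjusted p = 0.923). Groups that do not overlap at all were seen for 1 of 139 entries (0.719%) and for 0 of 7 members. In direction, 6 of 7 members had the lower mean in the dark, as did 92 of 139 entries (66.2%), and 1 was higher. The other 33.8% of entries were higher or, at the floor on all 12 arrays, without any difference. With arrays scaled over all probes, however, 7 of 7 members were higher in the dark, and without scaling 4 of 7. Those 2 choices, and a normexp background correction, are set against the median of all entries here: that median was -0.02 on the log2 scale as reported, 0.38 with scaling over all probes, 0.03 without scaling and -0.36 with normexp. Measured from that median, 1 of 7 members was above it as reported, 2 with scaling over all probes, 2 without scaling and 4 with normexp.

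Light and dark values of miR-19b lay apart in the first cycle and not in the second. In the first its 3 dark arrays had 440.3 to 475 units and its 3 light arrays 497 to 525, with no overlap. In the second cycle the dark arrays had 488 to 502 units and the light arrays 480.0 to 500.4. The test of the difference between cycles gave miR-19b the smallest p of the 139 entries (0.16 on the log2 scale, SE 0.045), but it did not pass adjustment (limma adjusted p = 0.951). In that test 0 of 139 entries (0%) passed adjustment, and 3 (2.16%) and 1 of 7 members had an unadjusted p under 0.05. miR-19a (50.6 to 59.8 units in the dark, 60.4 to 61.6 in the light) and miR-92a (213 to 243 in the dark, 251 to 261 in the light) were separated in the first cycle as well. Dark below light without overlap was thus seen for 3 of 7 members in the first cycle, all of miR-17~92, beside 8 of 139 entries (5.76%), and for 0 of 7 in the second, beside 15 of 139 (10.8%). Dark above light without overlap was seen for 0 of 7 members in either cycle, beside 2.88% and 2.16% of entries. For miR-20a of miR-17~92 and for the 3 members of miR-106b~25 light and dark overlapped in both cycles. These separations within a cycle of 3 light and 3 dark arrays were not tested. The first cycle lay wholly on slide 1, and 4 of the 6 arrays of the second on slide 2, so a cycle and a slide can be told apart only through ZT42 and ZT46.

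The 6 clock times were also compared without any assumed shape. limma called 0 of 139 entries (0%) and 0 of 7 members after adjustment, and 6 entries (4.32%) and 0 members at an unadjusted p under 0.05. The fold between the highest and the lowest clock-time mean was 1.08 for miR-106b and 1.16 for miR-92a, the members with the narrowest and the widest span, and the median over the members was 1.11 beside 1.14 over the 109 entries. Scaling over all probes gave the members spans of 1.52-fold to 1.67-fold and normexp 1.16-fold to 2.18-fold, again with no call. miR-92a ran from 217 units at clock time 14, through 240.1 at 18, 244 at 10, 247 at 2 and 250.2 at 22, to 252 at 6 (limma adjusted p = 0.805). Only the step from clock time 14 to 18 was wider than the spread of the arrays there, and the other 4 pairs of neighbours overlapped. miR-20a was lowest at clock times 14 (134 units) and 10 (136), and its arrays at both times lay below those at 22 (142), the next in order. Clock time 14 was low for most entries: at ZT38 and ZT62, 18.3% and 21.1% of the 109 entries lay above their own medians. The median deviation of the 109 entries there was small, -0.059 and -0.049 on the log2 scale. In miR-19a, miR-19b and miR-25 4 of 5 pairs of neighbours overlapped, and in miR-106b and miR-93 5 of 5. Such steps were not counted over the other entries, so they set no member apart from them. Arrays of one clock time, 24 h apart, differed by a median of 1.03-fold for miR-20a and 1.12-fold for miR-106b, and by up to 1.20-fold for miR-25 at clock time 22.

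No member was called between the second cycle and the first. With clock time in the model, limma called 0 of 139 entries (0%) and 0 of 7 members after adjustment, and 5 entries (3.6%) and 0 members at an unadjusted p under 0.05. Differences ran from -0.02 (miR-92a) to 0.05 (miR-19a) on the log2 scale, and the 95% intervals of the 7 folds reached 0.899 at the lowest and 1.15 at the highest. The mean was higher in the second cycle for 6 of 7 members and for 83 of 139 entries (59.7%), and lower for 1 member. The other 40.3% of entries were lower or, at the floor on all 12 arrays, without any difference. With arrays scaled over all probes, however, the mean was higher for 0 of 7 members, without scaling for 1 of 7 and with quantile normalization for 2 of 7.

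One array, ZT22, stood lowest for 4 of the 7 members, namely miR-19a, miR-19b, miR-93 and miR-25. The median deviation of the members from their own medians was -0.17 on the log2 scale there, while that of the 109 entries was 0.01, and ZT22 was the lowest array for 15.6% of these entries. miR-20a and miR-92a, from the same cluster as the miR-19 pair, lay at 142.9 and 243 units at ZT22, beside medians of 142 and 242, so the low value did not extend to every member. The second probes of miR-19a and miR-19b were lowest at ZT22 too (37.6 and 182 units), but that of miR-25 was lowest at ZT34 (27.6 units), and that of miR-93 lay at the floor on 11 arrays. The summed signal of the 5 stellate and smooth muscle markers was at its highest at ZT22, with 279 units beside a median of 206, whereas the sums of the hepatocyte, red cell, leukocyte and endothelial markers there were the 4th, 6th, 7th and 9th lowest of the 12 arrays. The part of these cells in the low values was not tested. Bright markers weigh most in such sums: miR-122 had a median of 31818 units beside 37592 for the hepatocyte sum. Of the 5 stellate and smooth muscle markers, miR-145 and miR-214 lay below the floor on all 12 arrays. At ZT62, the other array where miR-93 and miR-25 were low, 1 of 7 members and 21.1% of the 109 entries lay above their own medians. Low values there were thus shared by most entries, but not to the same depth. The median deviation at ZT62 was -0.095 on the log2 scale for the members and -0.049 for the 109 entries. The leukocyte sum was at its lowest at ZT62 (465 units beside a median of 537), and that of the hepatocyte markers was the 2nd lowest. The part of the cells in these values was not tested either. At ZT54 all 7 members were above their own medians, as were 70.6% of the 109 entries. ZT46, the array 24 h after ZT22, showed 3 of 7 members above their medians.

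Across the 12 arrays 1 of the 21 pairs of members varied together beyond the adjusted threshold. No such count was made for pairs of other entries, so it does not set the members apart. Among the 5151 pairs of other entries never at the floor r reached 0.96. That pair was miR-93 and miR-25, neighbours in miR-106b~25 with unlike seeds, with Pearson's r = 0.86 (permutation p = 0.00039, adjusted p = 0.00819). Spearman's rho was 0.75 (permutation p = 0.007, adjusted p = 0.147), and r was 0.57 without the 2 arrays farthest from the median, so the relation leaned on those arrays. Leaving out ZT22 gave r = 0.76 (adjusted permutation p = 0.0966) and leaving out ZT62 gave r = 0.90 (adjusted permutation p = 0.0564), and the call was lost each time. Within slide 1 (8 arrays) r was 0.92, and slide 2 held too few arrays for a value. The log2 ratio of miR-93 to miR-25 had an SD of 0.050 over the arrays, less than the 0.056 that the spot errors of both allow. The third member of that cluster followed less closely: miR-106b had r = 0.54 with miR-93 (rho 0.48, adjusted permutation p = 0.271 for r) and r = 0.45 with miR-25 (rho 0.50, adjusted permutation p = 0.292 for r).

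In miR-17~92 the closest pair was miR-19a and miR-19b, which share a seed and differ by 1 base. Their r was 0.79 (permutation p = 0.00481, adjusted p = 0.0505) with rho 0.64 (adjusted permutation p = 0.291), just outside the threshold, and 0.36 without the 2 arrays farthest from the median. Without ZT22 r was 0.50 (adjusted permutation p = 0.230), and within slide 1 it was 0.85. The SD of their log2 ratio was 0.051, below the 0.070 that their spot errors allow, so their ratio varied by no more than the spots of an array. At the other end, miR-20a and miR-19b, whose hairpins are neighbours on the transcript, had r = -0.10 (rho -0.08, adjusted permutation p = 0.753 for r). With the second probe of each the same pair had r = 0.47, and with the mean of detected probes 0.19, so the sign depended on the probe. miR-20a and miR-92a had r = 0.52 (rho 0.48, adjusted permutation p = 0.271 for r), and 0.26 within slide 1.

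The ranges of r within and between clusters overlapped. The median r was 0.54 over the 3 pairs within miR-106b~25, 0.32 over the 6 pairs within miR-17~92 and 0.37 over the 12 pairs between clusters, and no test of these medians was made because pairs share members. Over the 5151 pairs of other entries never at the floor the median r was 0.19, and 30.3% of them reached the members' overall median of 0.38. These values depend on the scaling, which is common to all entries of an array: scaled over all probes, the 3 medians were 0.98, and with quantile normalization they were 0.20, 0.17 and 0.15.

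**Figure D4:**
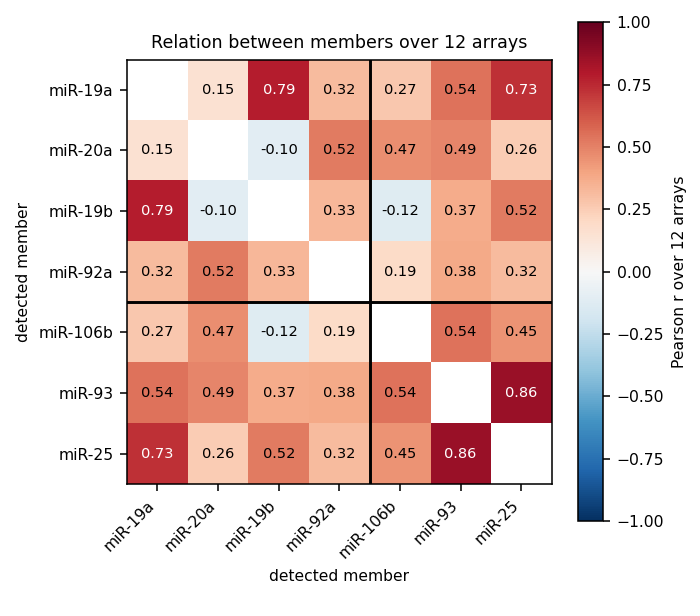
Pearson's r over 12 arrays for each pair of the 7 detected members, coloured from -1 (blue) to 1 (red), with black lines between the clusters. The highest cells are miR-93 with miR-25 (0.86) and miR-19a with miR-19b (0.79), and miR-19b has r = -0.10 with miR-20a and -0.12 with miR-106b.

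Outside the clusters, the entries whose pattern was most like a cluster's mean standardised profile were ranked by Pearson's r over the 12 arrays, as a description. They share the RNA pools, the arrays and the scaling with the members. For miR-17~92, among 126 entries, they were miR-720 (0.82), miR-455 (0.73), miR-100 (0.67), miR-99a (0.60) and miR-1198 (0.59). For miR-106b~25 they were miR-15b (0.85), miR-1198 (0.78), miR-22* (0.75), miR-1224 (0.75) and miR-202-3p (0.74). miR-15b belongs to the miR-15/16 family of cell cycle repressors. miR-1198 was on both lists. For single members, miR-21, an abundant miRNA induced in growth and injury, was closest to both miR-19a (0.82) and miR-19b (0.71). The 5 closest to miR-92a were miR-148a (0.78), miR-22 (0.76), miR-345-5p (0.73), miR-192 (0.73) and miR-689 (0.66). Of the hepatocyte markers, miR-148a and miR-192 were among these 5, and miR-122 and miR-194 were not.

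Relatives of the clusters were mostly not detected. The third cluster of this kind, on chromosome X, has 4 listed miRNAs (miR-106a, miR-18b, miR-20b and miR-363). An entry on the array was found for 3 of them, and 1 was detected, miR-20b. Its sequence shows how close it is to miR-20a, from which it differs by U1C and U10C.
miR-20b: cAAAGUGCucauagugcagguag
miR-20b had 62.1, 63.6, 69.8, 62.3, 63.9 and 63.5 units in the first cycle and 68.1, 69.2, 67.5, 66.8, 73.1 and 59.5 in the second. Its 24-h fold was 1.06 (upper limit 1.23), and its r with miR-20a over the 12 arrays was 0.36. The other entries of that cluster, miR-18b and miR-363, were detected on 0 arrays. Of the remaining relatives by seed, miR-32 was detected on 1 array, and miR-92b and miR-367 on 0. Of 12 star arms listed, the strands opposite the members in their hairpins, 7 had an entry and 0 were tested: miR-17* was detected on 2 arrays and the other 6 on none. miR-20b, the entry of these lists that was tested, passed neither the 24-h nor the light and dark test of limma after adjustment.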

How the data were processed

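Total RNA of mouse liver was measured on 12 one-colour Agilent miRNA arrays. The deposited intensity of each spot was subtracted for background and detrended by Agilent Feature Extraction, version 10.7.3.1 per the file headers and 9.5.3.1 per the submitters' processing notes, with no scaling between arrays. The intensities of the series matrix were the same (largest difference 0). Control spots and outlier spots (3.82% to 6.94% of an array) were left out, and the spots of a probe were averaged. Each array was divided by the 75th percentile of the 157 probes that every array detected, a floor of 22.2 units was set, and log2 was taken of the deposited intensities so scaled. The probe with the highest mean stood for each entry. Entries detected by the software on at least 6 arrays were tested with limma 3.58.1 in R 4.3.3 (input by data.table, version 1.17.8), with a variance trend and Benjamini-Hochberg adjustment over 139 entries. Upper 95% limits of folds used both 24-h terms jointly. Permutation tests were two-sided with 100000 draws. The 24-h, light and dark, clock-time and cycle tests of limma were checked on simulated data. The test of the difference between cycles in light and dark, and the permutation tests, were not part of that check. Members and lists were chosen with earlier results of these data known: the 9 members were named throughout, beside fixed lists of relatives and cell markers and the 5 entries most alike by r. Other scalings, background corrections, probe rules, filters, floors, slide terms and left-out arrays were tried. Sequences and coordinates came from RefSeq tables of GRCm38.p6.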

Additional observations from a re-analysis of the deposited data

Results flagged for a closer look

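Among 28 sets of 6 arrays examined (7 members in the light, in the dark and in each cycle), 1 array stood apart by Dixon's criterion: miR-25 at ZT62, with 89.8 units, was the lowest of the second cycle. The next lowest array had 96.7 units and the highest 99.8, a gap of 0.701 of the range. Chance gives about 1 such case in 20 groups, and the cause was not tested. Most entries were low on that array: at ZT62, 21.1% of the 109 entries never at the floor lay above their own medians. Their median deviation there was -0.049 on the log2 scale, and that of the members -0.095.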

How the results depend on the processing

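No member was called under any of the 25 alternatives in the 24-h, clock-time, light and dark or cycle test. Counts of entries called moved from 0 to 1 with normexp (24 h and clock time) and to 3 with slide 1 alone (clock time). Leaving out 1 array gave 0 to 8 calls for clock time (8 without ZT26, 2 without ZT46, 1 without ZT54 and 1 without ZT58), 0 to 2 for light and dark (2 without ZT30), and 0 to 2 pairs of members (0 without ZT22 or ZT62, 2 without ZT18 or ZT58). Scaling over all probes called 21 pairs, no scaling 8 and the mean of detected probes 3; scaling over all probes moved the median r to 0.98 within each cluster and between them, and quantile normalization to 0.20 within miR-106b~25 and 0.15 between clusters.

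Signs of the small differences depended on the scaling. Of the alternatives, scaling over all probes takes its percentile among weak signals, since 16.5% to 19.6% of an array's spots were well above background. Light against dark, in log2 units, became 0.37 (miR-19a), 0.36 (miR-19b), 0.40 (miR-20a), 0.36 (miR-25), 0.36 (miR-92a) and 0.38 (miR-93) with all probes, 0.0048 (miR-19a), 0.029 (miR-20a) and 0.00834 (miR-93) without scaling, 0.022 (miR-92a) with quantile normalization, -0.30 (miR-106b) with normexp and 0.13 (miR-93) with the software's total signal, an alternative added after seeing the data. Without one array miR-106b ranged from -0.011 (without ZT58) to 0.047. The cycle difference became -0.50 (miR-106b), -0.49 (miR-19a), -0.51 (miR-19b), -0.52 (miR-20a), -0.50 (miR-25) and -0.53 (miR-93) with all probes, and -0.00933 (miR-106b), -0.018 (miR-19b), -0.036 (miR-20a), -0.014 (miR-25) and -0.041 (miR-93) without scaling. With quantile normalization it was -0.044 (miR-19a), -0.0097 (miR-19b), -0.029 (miR-20a) and -0.052 (miR-93), and -0.011 (miR-93) with the total signal. For miR-92a it turned to 0.027 with the mean of detected probes, 0.16 with normexp, 0.0073 with outlier spots kept, and 0.039 with the slide as a block or slide 1 alone. Leaving out 1 array, and with it its clock time, gave -0.00095 to 0.046 (miR-19b) and -0.017 to 0.055 (miR-25), both lowest without ZT22 or ZT46, -0.024 to 0.020 (miR-20a), lowest without ZT30 or ZT54, -0.038 to 0.017 (miR-92a), highest without ZT34 or ZT58, and -0.047 to 0.045 (miR-93), lowest without ZT22 or ZT46.

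The r of miR-106b with miR-25 was -0.099 with quantile normalization. The r of miR-20a with miR-19b was 0.98 with all probes, 0.57 without scaling, 0.19 with the mean of detected probes and 0.044 with quantile normalization, and ranged from -0.22 to 0.013 (without ZT30) when 1 array was left out. The cause of these moves was not tested. No filter on entries meant all entries not at the floor on every array. Pools of 2 livers and 12 arrays limit the precision, and miR-17 and miR-18a, not detected and below the floor, have no measured change. Arrays of one clock time, 24 h apart, were tested as pairs in the cycle test only.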
